A study of Mus musculus with 130 samples.

Results

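Among 55 BXD mouse strains fed a high-iron diet, the 20 strains with the most Hamp2 transcript in the liver were compared with the 20 strains with the least. The strains were chosen by their Hamp2 level alone, as TPM, a transcript measure scaled for gene length and library size, so the Hamp2 values below describe the choice and were not tested. All other genes were tested from the matching counts of the same 40 livers. The 15 strains ranked between the groups entered no test. BXD strains are recombinant inbred lines bred from C57BL/6J and DBA/2J, so that at any place in the genome a strain carries the allele of either parent in homozygous form.

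The series as a whole holds 130 liver libraries, of which 115 come from a panel of 114 strains, 56 of them BXD. All mice of the panel were labelled male, received chow for 4 weeks and then a diet with 2% carbonyl iron (20000 ppm) for 6 weeks, and carried no transgene or other treatment named in the labels. The high and the low group therefore share the diet, its duration, the labelled sex and the tissue, a piece of the large liver lobe, and differ in strain. There was 1 mouse per strain, so the strain is the replicate, and no value has a repeat within its strain. Names with /TyJ or /Ty and names with /RwwJ mark 2 sets of BXD strains. The high group held 10 of the first set and 10 of the second, and the low group 12 and 8. The strain BXD24/TyJ-Cep290<rd16>/J, in the low group, carries a named mutation besides its BXD background. BXD65/RwwJ was left out by the rule. Its Hamp2 level was 1078 TPM, and its summed TPM of 4 Y-linked genes was 1.08, against 47.8 to 81.5 in the 55 strains ranked, which goes against its label as a male.

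Hepcidin is the liver hormone that lowers iron entry into blood by binding the iron exporter ferroportin and causing its breakdown. Hepatocytes transcribe its gene when iron is plentiful, through bone morphogenetic proteins and SMAD factors, and during inflammation, through interleukin 6 and STAT3. Mice carry a pair of hepcidin genes side by side, Hamp, which encodes the active hormone, and Hamp2, a duplicate whose peptide did not lower blood iron when it was overproduced in mice.

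The copies are shown here because the comparison rests on telling their transcripts apart. Hamp2 lies on the minus strand of chromosome 7 at chr7:30922372-30924681 in GRCm38, and Hamp on the same strand at chr7:30942368-30944032. Their lower coordinates lie 20 kb apart. In all distances between genes, start means this lower coordinate, whichever strand the gene lies on. Both reading frames have 249 coding bases in 3 exons. They match at 233 of 249 positions (93.6%), and 14 of the 16 mismatches fall in the last 75 coding bases, which encode the mature peptide and lie in the third exon. These stretches follow, from the GENCODE M21 transcripts, with the bases that differ in capitals, for Hamp at chr7:30942480-30942554 and for Hamp2 at chr7:30922511-30922585, both on the minus strand.
Hamp: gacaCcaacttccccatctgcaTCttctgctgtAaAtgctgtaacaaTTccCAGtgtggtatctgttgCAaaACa
Hamp2: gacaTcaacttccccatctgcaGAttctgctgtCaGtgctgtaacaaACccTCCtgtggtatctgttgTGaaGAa

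The promoters are nearly as alike, at 227 of 253 aligned positions (89.7%, with 20 mismatches and 6 gap positions). The 250 bases before each transcription start are given from RefSeq (build GRCm38.p6, minus strand), chr7:30944030-30944279 for Hamp and chr7:30924182-30924431 for Hamp2. The Hamp2 window lies inside the gene span given above, which reaches further upstream than the RefSeq start. Capitals mark the hexamer GGCGCC, the core of the BMP response element known from hepcidin promoters, with the 6 bases aligned to it in Hamp2, and the pattern TTCNNNGAA bound by STAT factors.
Hamp: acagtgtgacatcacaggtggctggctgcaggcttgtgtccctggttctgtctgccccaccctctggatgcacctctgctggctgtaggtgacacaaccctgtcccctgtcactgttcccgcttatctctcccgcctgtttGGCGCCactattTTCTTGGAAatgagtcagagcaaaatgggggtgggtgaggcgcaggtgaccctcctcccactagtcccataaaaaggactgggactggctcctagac
Hamp2: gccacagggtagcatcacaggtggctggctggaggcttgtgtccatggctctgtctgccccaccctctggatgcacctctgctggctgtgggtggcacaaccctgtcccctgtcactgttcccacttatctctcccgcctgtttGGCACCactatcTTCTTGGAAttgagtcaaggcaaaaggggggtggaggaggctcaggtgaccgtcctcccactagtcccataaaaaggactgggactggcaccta
GGCGCC was present in the Hamp window and not in the Hamp2 window, where the aligned bases differed by G4A, counted from 1 at the 5′ end of the hexamer. TTCNNNGAA was present in both, as TTCTTGGAA. Searched on both strands, GGCGCC was found in 9.59% of 32851 RefSeq promoter windows of this length and TTCNNNGAA in 7.02%, and the motifs do not overlap in either window. These are reference letters of C57BL/6J, and the DBA/2J allele was not analysed here.

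The authors' program shared reads that fit both genes between them. The sum of the Hamp and Hamp2 counts was a whole number in 115 of 115 libraries, to within 0.001, while the Hamp2 count alone was whole in 0. Of the 31-base words in the Hamp2 transcripts, 128 of 553 (23.1%) also occur in Hamp. Hamp is thus not fully independent of the rule that chose the strains, and its test below is given with that limit.

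Libraries of the 40 strains held 9.41 to 21 M counts (M is 1000000), with a median of 13.3 M in the high group and 12.3 M in the low group. The hepatocyte markers Alb, Apoa1, Ttr, Serpina1a, Tat, Cps1 and Hnf4a were abundant in all of them, at a summed 50600 to 84800 TPM in the high group and 38680 to 72480 TPM in the low group. In bulk liver, fewer cells of a type and less RNA per cell cannot be told apart.

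In the high group Hamp2 ranged from 7998 TPM in BXD66/RwwJ through a median of 11241 TPM to 14581 TPM in BXD33/TyJ. In the low group it ranged from 320.0 TPM in BXD87/RwwJ through a median of 600.1 TPM to 940.9 TPM in BXD22/TyJ, so that the medians differed 18.7-fold. At the edges of the choice, the strain just inside the high group had 7998 TPM and the one just outside 7780 TPM, and the strain just inside the low group had 940.9 TPM and the one just outside 1043 TPM. Neither edge falls at a break in the values.

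The break lay between the groups. Among strains next to each other in rank, the largest ratio was 2.13, between BXD48/RwwJ at 3750 TPM and BXD5/TyJ at 1759 TPM. It left 24 strains above and 31 below. The 4 strains between the groups and above the break were BXD50/RwwJ, BXD48a/RwwJ, BXD27/TyJ and BXD48/RwwJ, at 3750 to 7780 TPM, and the other 11 lay at 1043 to 1759 TPM. In all 24 strains above the break Hamp2 exceeded Hamp on the TPM scale, and in none of the 31 below.

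**Figure D1:**
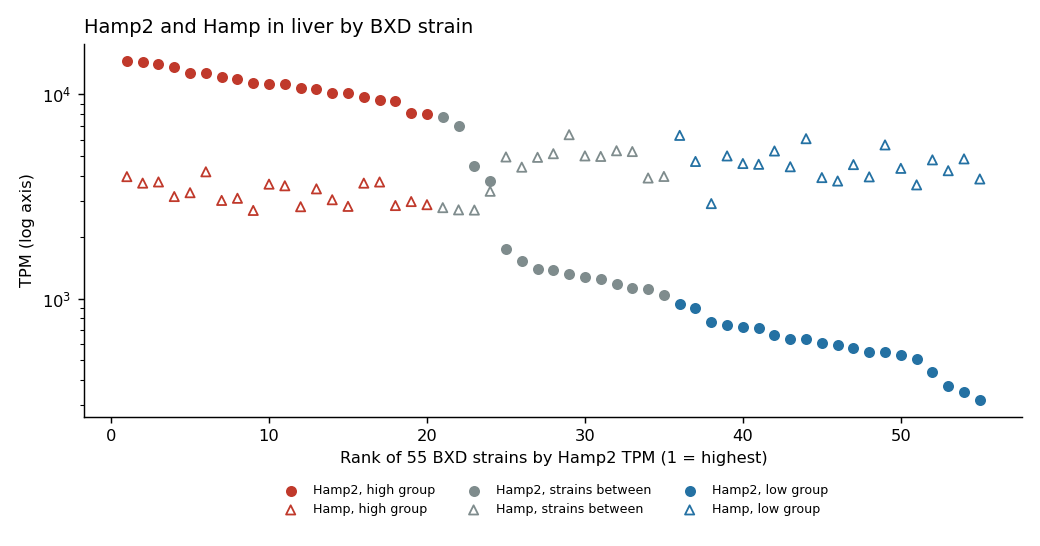
Hamp2 (filled circles) and Hamp (open triangles) in TPM on a log axis for 55 BXD strains, ordered by Hamp2 rank, with the 20 highest strains in red, the 20 lowest in blue and the 15 between in grey. Hamp2 drops from 3750 to 1759 TPM between ranks 24 and 25, and Hamp is lower where Hamp2 is high.

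The parents differed in the same direction as the groups. C57BL/6J had 483.1 TPM of Hamp2 and DBA/2J 4208 TPM. Outside the BXD strains, 3 strains of the panel lay above the break, namely NZW/LacJ with 13499 TPM, RIIIS/J with 8399 TPM and DBA/2J itself, and NZB/BlNJ had 2329 TPM. The 20 AXB/BXA strains, which share the C57BL/6J parent and have A/J as the other, ranged from 215.7 to 1208 TPM, which overlaps the low group and not the high one.

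Hamp moved the opposite way and by far less. In the high group Hamp ranged from 2703 TPM through a median of 3230 TPM to 4177 TPM, and in the low group from 2919 TPM through a median of 4539 TPM to 6299 TPM. The ranges overlapped, but 14 of 20 low strains lay above the highest of the high strains. The difference, high minus low, was -0.49 log2 (SE 0.070, 1.4-fold lower, adjusted p = 3.02e-05). Adjusted p-values here come from edgeR's quasi-likelihood test with Benjamini-Hochberg adjustment over all genes tested, with 0.05 as the threshold for calling a gene. Among /TyJ and /Ty strains alone the difference was -0.42 and was not called (adjusted p = 0.704). Among /RwwJ strains alone it was -0.52 (adjusted p = 0.00412). With the strain set as a covariate it was -0.47 (adjusted p = 8.97e-06). A dependence of the group difference on strain set, tested in edgeR as an interaction, was called for 0 genes (smallest adjusted p = 0.9994).

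The transcripts of both genes summed to a median of 14416 TPM in the high group and 5142 TPM in the low group, and Hamp2 made up a median of 77.6% of the pair's TPM in the high group and 12.3% in the low group. In the parents Hamp stood at 3745 TPM in C57BL/6J and 1020 TPM in DBA/2J. NZW/LacJ, with the highest Hamp2 outside the BXD strains, had 4616 TPM of Hamp, above the whole high group.

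Within each group the estimated relation of Hamp with Hamp2 was positive. Across the 20 high strains the log2 CPM of the genes gave a Pearson r of 0.474 and a Spearman rho of 0.538, and on the scale of log2(TPM + 1) 0.476 and 0.481. Without the 2 strains farthest from the median of Hamp2, BXD32/TyJ and BXD66/RwwJ, r was 0.508. Across the 20 low strains r was 0.231 and rho 0.152, on the scale of log2(TPM + 1) 0.219 and 0.286, and r was 0.127 without BXD69/RwwJ and BXD87/RwwJ. The 2 genes share reads and a library, and Hamp2 chose and bounded the groups, so these values are descriptions and carry no p.

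Of 13211 genes tested besides Hamp2, 20 were called (0.151%), 5 higher in the high group (0.0378%) and 15 lower (0.114%). The called genes were mostly neighbours of Hamp2. Within 5 Mb of it 13 of 131 genes tested were called (9.92%), elsewhere on chromosome 7 none of 901, and on the other chromosomes 7 of 12179 (0.0575%). Of the 901 genes, 118 had an unadjusted p under 0.05 (13.1%, against 12.3% of all genes), and DESeq2 called 5 of them. Among /TyJ and /Ty strains alone 5 genes were called in all, and among /RwwJ strains alone 13.

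**Figure D2:**
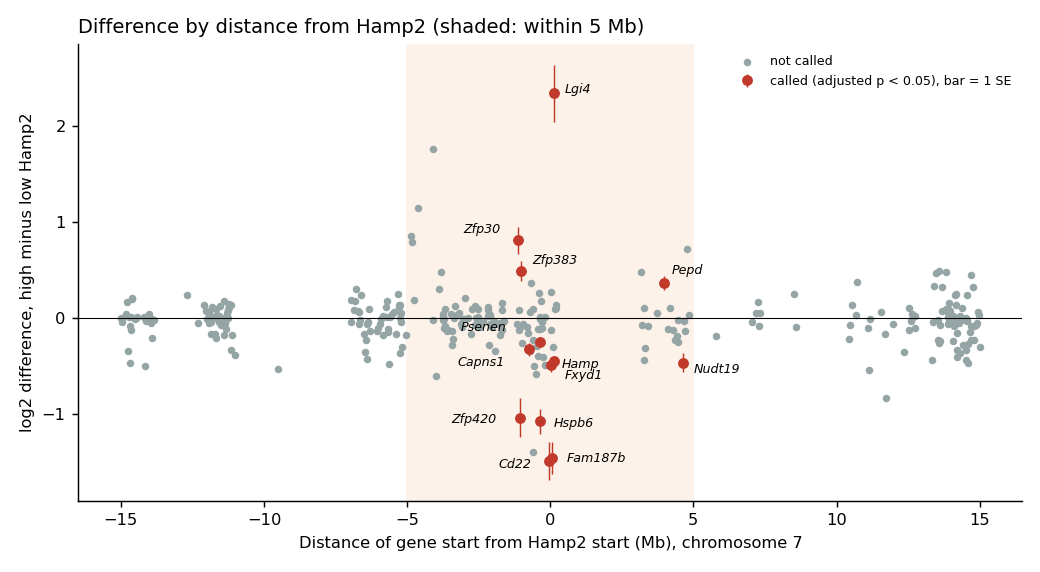
The log2 difference (high minus low Hamp2) of each gene tested on chromosome 7, against the distance of its start (lower coordinate) from that of Hamp2 in Mb, up to 15 Mb. Called genes are red with bars of 1 SE, other genes grey, and the shaded band marks 5 Mb to each side. All 13 called genes sit inside the band, 4 higher and 9 lower.

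The calls were densest next to the gene, with 8 of 40 genes called within 1 Mb (20.0%) and 24 of the 40 past 0.05 without adjustment. Their median absolute difference was 0.25 log2, against 0.087 over all genes tested. The direction was mixed, since 7 of the 8 were lower in the high group and Lgi4 was higher. The other 32 genes within 1 Mb were not called. Their differences ran from -1.4 log2 for Syne4, a protein of the nuclear envelope (adjusted p = 0.168), to 0.36 for Wdr62, a centrosome protein. Usf2, a transcription factor whose gene starts 22.9 kb from Hamp2 and next to Hamp, had a difference of -0.13 log2 (adjusted p = 0.601). The next gene, Lsr, a lipoprotein receptor, had 0.28 (adjusted p = 0.252).

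Lgi4, which encodes a secreted protein known from the myelination of peripheral nerves, rose with Hamp2. It starts 137 kb from Hamp2 and ranged from 0.590 through 1.56 to 3.67 TPM in the high group and from 0 through 0.279 to 1.13 TPM in the low group. In 16 of 20 high strains it exceeded every low strain. The difference was 2.34 log2 (SE 0.30, adjusted p = 1.96e-06), on a level that is low for liver in either group. Lgi4 overlaps Fxyd3 on the other strand over 2764 bases.

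Fam187b, a membrane protein of little-known function 51.4 kb from Hamp2, fell. It ranged from 0.411 through 0.693 to 1.4 TPM in the high group and from 1.25 through 2.68 to 3.89 TPM in the low group, a difference of -1.46 log2 (SE 0.17, adjusted p = 2.79e-07). The groups barely touched, with 18 of 20 high strains under the lowest of the low strains. Cd22, an inhibitory receptor of B cells on the other side of Hamp2 at 57 kb, ranged from 0.127 through 0.581 to 1.80 TPM in the high group and from 0.555 through 1.48 to 2.60 TPM in the low group. It fell by 1.49 log2 (SE 0.20, adjusted p = 4.07e-06), while the 3 tested lymphocyte markers had a median difference of -0.04 log2 and none was called.

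Hspb6, a small heat shock protein of muscle, 370.2 kb from Hamp2, ranged from 1.28 through 2.97 to 7.95 TPM in the high group and from 2.94 through 5.95 to 9.60 TPM in the low group. It fell by 1.08 log2 (SE 0.13, adjusted p = 5.23e-07), with 9 of 20 high strains under all low strains. Psenen, a subunit of gamma-secretase beside Hspb6, fell by 0.25 log2 (SE 0.048, adjusted p = 0.00712), from a median of 58.3 TPM in the low group to 48 TPM in the high group. Psenen overlaps U2af1l4 on the other strand.

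Fxyd1, also called phospholemman, which regulates the sodium pump, was the most abundant called neighbour besides Hamp. It ranged from 250.4 through 317.5 to 468.2 TPM in the high group and from 322.7 through 403.7 to 491.5 TPM in the low group. In 13 of 20 high strains it lay under every low strain, and the difference was -0.45 log2 (SE 0.055, adjusted p = 9.04e-07). Capns1, the small subunit of calpains, differed by -0.33 log2 (SE 0.070, adjusted p = 0.0262), with medians of 68.3 TPM in the high and 74.5 TPM in the low group and wide overlap.

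**Figure D3:**
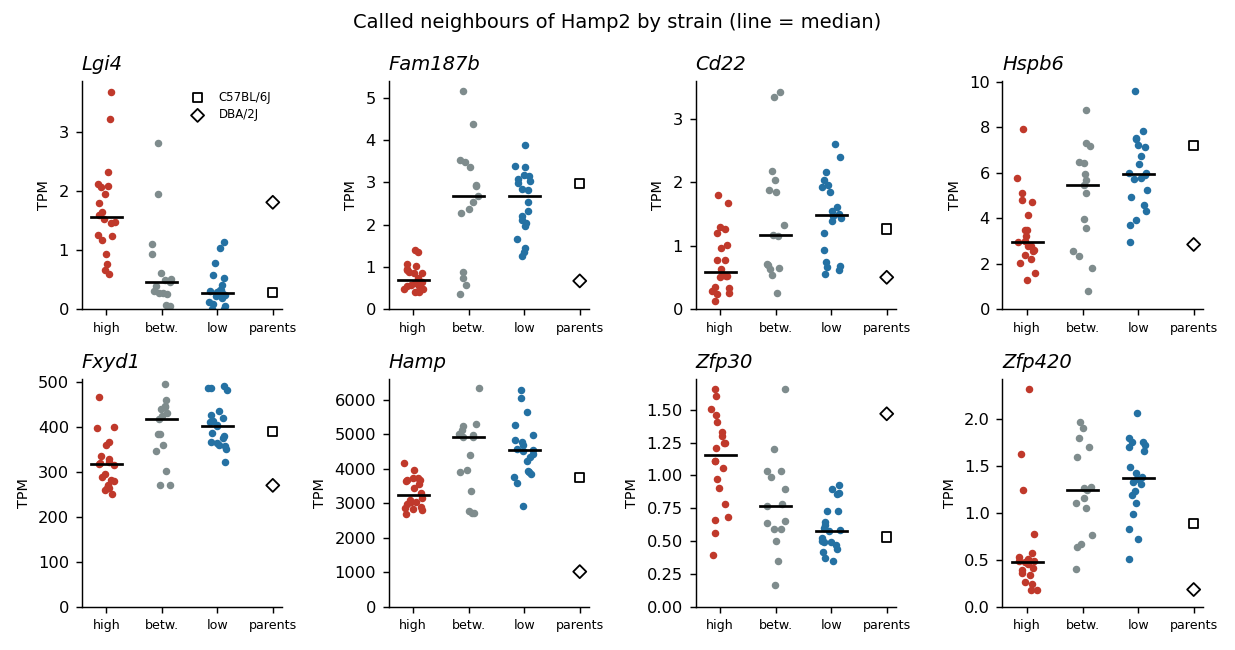
TPM of 8 called neighbours of Hamp2 in each strain, by Hamp2 group, with the median as a line, and the parents C57BL/6J (square) and DBA/2J (diamond) in the last column. Lgi4 and Zfp30 are higher in the high group, the other 6 genes are lower, and DBA/2J differs from C57BL/6J in the same direction in each panel.

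Between 1 and 5 Mb, 5 more genes were called. Of these, 3 encode zinc finger proteins and start 1.01 to 1.14 Mb from Hamp2, Zfp30 and Zfp383 higher in the high group and Zfp420 lower. Their neighbour Zfp74, at 0.992 Mb, was not called (-0.26 log2, adjusted p = 0.262). Zfp30 ranged from 0.396 through 1.16 to 1.66 TPM in the high group and from 0.346 through 0.579 to 0.930 TPM in the low group (0.81 log2, SE 0.14, adjusted p = 0.00123). Zfp420 ranged from 0.178 through 0.471 to 2.32 TPM against 0.503 through 1.37 to 2.06 TPM (-1.03 log2, SE 0.20, adjusted p = 0.00856). Of the high strains, 14 lay above all low strains for Zfp30, and 13 lay below all low strains for Zfp420. Zfp383 rose by 0.49 log2 (SE 0.11, adjusted p = 0.0298).

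On the other side, Pepd, the peptidase that splits dipeptides ending in proline, started 3.99 Mb from Hamp2 and was 0.37 log2 higher (SE 0.071, adjusted p = 0.00712), with medians of 21 and 15.3 TPM. Nudt19, a peroxisomal hydrolase of coenzyme A, started 4.62 Mb away and was lower by -0.46 log2 (SE 0.097, adjusted p = 0.0209), with medians of 22.5 TPM in the high and 30.7 TPM in the low group. The ranges of Pepd, Nudt19 and Zfp383 overlapped over most strains.

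Strains that took no part in the choice gave values for the same 13 genes. DBA/2J differed from C57BL/6J in the direction of the groups for 13 of 13, with Fam187b at 0.668 TPM in DBA/2J and 2.98 TPM in C57BL/6J, and Lgi4 at 1.81 and 0.287 TPM. RIIIS/J differed from C57BL/6J in that direction for 13 of 13, NZB/BlNJ for 12 and NZW/LacJ for 11, where Hamp and Zfp420 were the exceptions. The median of the 4 BXD strains above the break differed from that of the 11 below it in that direction for 12 of 13, with Pepd as the exception. The direction was not particular to the neighbours. Of the 7 genes called off chromosome 7, it held for 7 in DBA/2J and 7 in RIIIS/J. It held for 4 in NZW/LacJ, 2 in NZB/BlNJ and 2 in the BXD strains above the break. The same count over all genes tested was not made. Each inbred strain is 1 mouse, all 4 were named for their Hamp2 level and set against the same C57BL/6J library, and BXD strains descend from the parents, so these counts are descriptions without a test.

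Off chromosome 7 the largest difference by far belonged to Gm1840, a processed pseudogene named here after its values were seen, since predicted genes were passed over in naming. It is annotated on chromosome 8 at chr8:5639580-5641011 (plus strand). Gm1840 ranged from 22.2 through 31.8 to 43.3 TPM in the high group and from 0 through 0.400 to 0.816 TPM in the low group, from 305 to 666 counts against 0 to 16.5. It was the only gene of the 13211 whose groups did not overlap, with a difference of 6.18 log2 (SE 0.18, adjusted p = 5.66e-28). The strains between the groups followed the break in Hamp2, at 14.5 to 47.2 TPM in the 4 above it and 0 to 0.711 TPM in the 11 below. DBA/2J had 21.4 TPM and C57BL/6J 0.848 TPM.

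The Gm1840 transcript of 1432 bases aligned to a transcript of Gpi1 with 1412 of 1432 paired bases alike (98.6%). With gap positions counted, 1412 of 1677 aligned positions were alike (84.2%). Of the 1402 words of 31 bases in Gm1840, 829 (59.1%) occur in Gpi1. Gpi1, the glycolytic enzyme glucose-6-phosphate isomerase, lies on chromosome 7, starting 3.28 Mb from Hamp2. Gpi1 itself ranged from 106.9 through 160.4 to 241.0 TPM in the high group and from 125.4 through 211.1 to 398.0 TPM in the low group, a difference of -0.43 log2 that was not called (SE 0.11, adjusted p = 0.111). The sum of Gpi1 and Gm1840 had a median of 190.9 TPM in the high group and 211.5 TPM in the low group. Reads from the shared stretches can fit either gene, and from which of them the Gm1840 reads came cannot be told apart here. Outside the BXD strains 9 of 59 libraries reached 10 TPM of Gm1840, the 4 with high Hamp2 named above, at 21.4 to 54.1 TPM, and 5 with Hamp2 at or under 634.1 TPM, at up to 18.1 TPM.

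Kl, the gene of klotho, a co-receptor for fibroblast growth factor 23 made mainly in kidney, fell on chromosome 5. It ranged from 0.0356 through 0.107 to 0.181 TPM in the high group and from 0.156 through 0.323 to 0.569 TPM in the low group, with 17 of 20 high strains under all low strains. The difference was -1.62 log2 (SE 0.16, adjusted p = 4.48e-09) at a level near the lower end of detection, with a mean of 0.585 and 1.82 CPM. The 4 strains above the break had 0.113 to 0.185 TPM and the 11 below 0.136 to 0.484 TPM. The parents did not show the contrast at this size, with 0.174 TPM in DBA/2J and 0.202 TPM in C57BL/6J. Of 9253 words of 31 bases in Kl transcripts, 9 occur in a gene within 5 Mb of Hamp2.

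The other 5 genes called off chromosome 7 were lower in the high group. Mpo, myeloperoxidase of neutrophil granules, ranged from 0 through 0.325 to 2.10 TPM in the high group and from 0 through 1.08 to 19.3 TPM in the low group (-3.09 log2, SE 0.65, adjusted p = 0.0213). Gp1ba, a chain of the platelet receptor for von Willebrand factor, had medians of 0.413 and 0.857 TPM (-1.66 log2, SE 0.30, adjusted p = 0.00249), with 9 of 20 low strains above every high strain. Mthfd2, a mitochondrial folate enzyme, differed by -1.13 log2 (adjusted p = 0.0214), with 10 of 20 low strains above every high strain. Rbm38, an RNA-binding protein, differed by -0.82 log2 (adjusted p = 0.0298), and Tpd52, a protein of vesicle traffic, by -0.34 (adjusted p = 0.0339). The median of the 4 strains above the break was higher than that of the 11 below it for all 5, opposite to the groups, with Mpo at 0.499 to 3.50 TPM against 0.0356 to 0.410 TPM in the 11 below it.

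Neutrophil markers were read in the same livers, since Mpo is one of their products. The 7 markers fixed for neutrophils summed to 0.984 through 19.8 to 96.6 TPM in the high group and 3.05 through 27.2 to 294.6 TPM in the low group, where 7 of 20 strains lay above every high strain. All 4 markers tested had estimates below 0, with a median of -1.86 log2 against -0.0042 over all genes, and none was called (4 with an unadjusted p under 0.05). The granule protein gene Ngp came nearest, at -2.65 log2 (adjusted p = 0.0881), and DESeq2 called 1 of the 4, Ngp. Without the 5 libraries highest in these markers, all in the low group (BXD16/TyJ, BXD55/RwwJ, BXD42/TyJ, BXD24/TyJ-Cep290<rd16>/J and BXD8/TyJ), 15 genes were called, 12 of them among the 13 neighbours (Capns1 was lost). Gm1840, Kl and Gp1ba were still called off chromosome 7, and Mpo, Mthfd2, Rbm38 and Tpd52 were not. Mpo is itself a neutrophil gene, so its loss is not independent of how these libraries were chosen. Whether leaving out 5 other low strains loses the same genes was not tested. Leaving out the 5 libraries highest in erythroid markers, of which 4 are the same, gave the same counts.

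**Figure D4:**
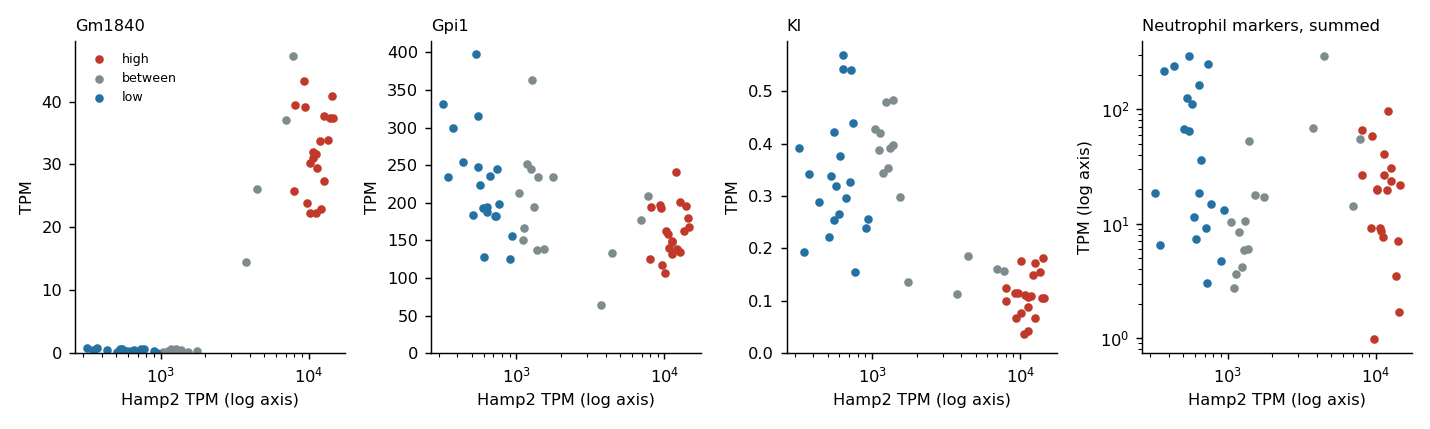
Gm1840, Gpi1, Kl and the summed neutrophil markers (TPM, the last on a log axis) against Hamp2 TPM on a log axis, 1 point per BXD strain, coloured by group. Gm1840 splits the strains without overlap, Kl is lower where Hamp2 is high, and the strains above 100 TPM of neutrophil markers are in the low group except for 1 strain between the groups.

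No iron gene other than Hamp was called between the groups of 20, and this depended on the number of strains. Of 50 tested, none was called by edgeR, DESeq2 or limma. Over all 13211 genes these called 20 (0.151%), 56 and 11, so 0 of 50 does not set the iron genes apart. With 15 against 15 strains, edgeR called 6 of 51 iron genes, beside 787 of 13083 genes in all (6.02%). Of the same 13083 genes, DESeq2 called 1215 with 10 iron genes, and limma 475 with 1, Hamp among them each time. In the groups of 20, 5 of the 50 had an unadjusted p under 0.05, against 12.3% of all genes tested, and 46 lay within 0.25 log2 of 0. Their median absolute difference was 0.073 log2, against 0.087 over all genes tested. Of the BMP ligands and SMAD targets, 3 of 8 were higher and 5 lower, with no call. Bmp6, the main iron-dependent ligand, had medians of 7.09 TPM in the high and 6.94 TPM in the low group (-0.05 log2, SE 0.17), and the SMAD target Id1 43 and 45.5 TPM (-0.05, SE 0.13). Smad7, the inhibitor of the pathway, differed by -0.12 log2 (SE 0.12).

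Of 15 sensing receptors and regulators none was called, beside 0.151% of all genes tested. Tfr2, a hepatocyte sensor of transferrin, had medians of 173.3 and 173.8 TPM, and Hjv, the BMP co-receptor hemojuvelin, 48.6 and 48.8 TPM. Tmprss6, the protease that cleaves hemojuvelin, had 163.4 and 153.4 TPM (0.14 log2, SE 0.063, adjusted p = 0.373). Hfe, mutated in hemochromatosis, had 17.4 and 20.5 TPM.

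Storage genes lay as close. The ferritin chains had medians of 1397 and 1332 TPM for Fth1 and 5918 and 5979 TPM for Ftl1. Slc40a1, the exporter ferroportin on which hepcidin acts, had medians of 126.5 TPM in the high and 140.7 TPM in the low group (-0.21 log2, SE 0.10, adjusted p = 0.397). The widest differences were those of Hmox1, which breaks down heme, at -0.70 log2 (SE 0.23, adjusted p = 0.248), Tfrc, the transferrin receptor, at -0.58 (SE 0.29, adjusted p = 0.410), Slc11a2, an importer of ferrous iron, at -0.58 (SE 0.17, adjusted p = 0.161), and Cd163, the macrophage receptor for hemoglobin, at -0.48 (SE 0.22, adjusted p = 0.377). All 4 are lower in the high group, as the neutrophil markers are, whose part in these differences was not tested.

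**Figure D5:**
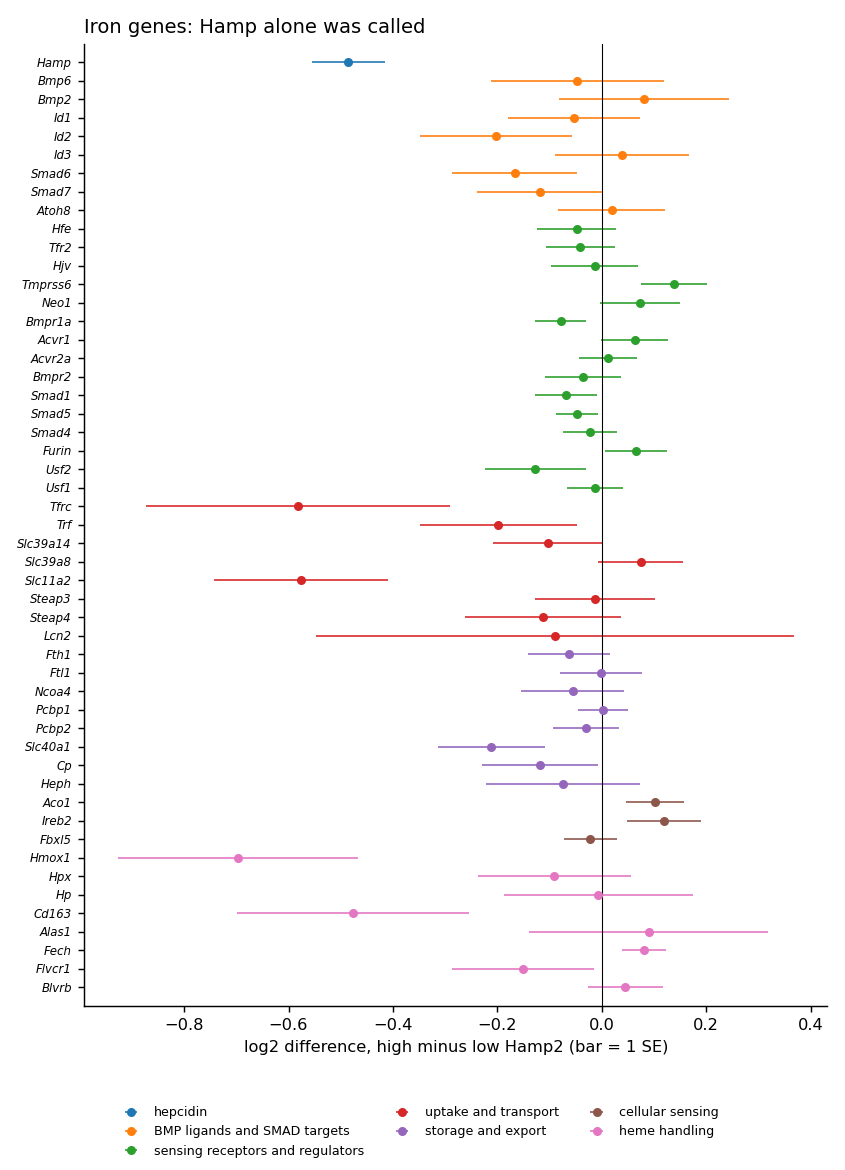
The log2 difference (high minus low Hamp2) of 51 iron genes, coloured by role, with bars of 1 SE. Hamp lies at -0.49 with a short bar, and the other 50 genes, none called, lie between -0.70 and 0.14. Of all genes tested, 0.151% were called.

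Markers of other cell types and of the acute phase had no calls between the groups of 20, where 0.151% of all genes were called. Several were called between groups of 15. Of 10 Kupffer and macrophage markers all were lower (median -0.28 log2), with 4 at an unadjusted p under 0.05. Their summed level was 212.2 to 542.8 TPM in the high group and 174.6 to 778.2 TPM in the low group. Of 6 erythroid markers tested all had fitted differences below 0 (median -0.57 log2, 1 with an unadjusted p under 0.05), but the median of their sum was higher in the high group. The sum ran from 46 through 790.2 to 1891 TPM in the high group and from 3.85 through 634.1 to 4812 TPM in the low group, where 5 strains lay above every high strain. The globin gene Hbb-bt, for example, had medians of 75.7 TPM in the high and 43.4 TPM in the low group beside a fitted difference of -0.60 log2. The 7 hepatocyte markers were all higher (median 0.14 log2, none with an unadjusted p under 0.05). Of 19 acute phase genes 8 were higher and 11 lower, with a median of -0.04 log2 and 1 at an unadjusted p under 0.05. Of 9 stellate and fibroblast, 8 endothelial, 4 cholangiocyte, 14 male-biased, 11 female-biased and 4 Y-linked genes tested, none was called and 4 genes in all had an unadjusted p under 0.05. The medians of these lists lay between -0.17 and 0.12 log2, and the widest single difference was that of Cyp3a41a, a female-biased cytochrome P450, at 3.22 log2 (adjusted p = 0.0881). Its medians, 0.820 TPM in the high and 0.547 TPM in the low group, lay far closer than this fitted difference. DESeq2 and limma called none of these genes. The 9 exocrine pancreas markers summed to at most 4.41 TPM, and 0 passed the filter on low counts.

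The number of genes called away from Hamp2 depended on how many strains were compared. With the 15 highest against the 15 lowest strains, 787 of 13083 genes were called (6.02%), 329 higher (2.51%) and 458 lower (3.5%), 705 of them off chromosome 7. DESeq2 called 1215 and limma 475 in the same strains. Without the 4 of the 15 low libraries that are among the 5 highest in neutrophil markers, edgeR called 27, with 11 low strains left, and whether leaving out other low strains lowers the count as much was not tested. With 18 against 18 strains it called 40, and with 25 against 25 it called 15. The 25 highest strains include BXD5/TyJ, which lies below the break in Hamp2. The number of strains and the range of Hamp2 within the groups thus changed together. All 4 neutrophil markers tested were called lower in the 15 lowest comparison, with 4 of 10 Kupffer and macrophage markers (Vsig4, Marco, Csf1r and Lyz2) and the iron genes Tfrc, Slc11a2, Slc40a1, Hmox1 and Cd163 beside Hamp. Of the other lists, 1 gene each was called lower among the acute phase genes (Lbp, which binds lipopolysaccharide, adjusted p = 0.0385), the erythroid markers (Slc4a1, the anion exchanger of red cells, 0.0417) and the endothelial markers (Pecam1, an adhesion molecule, 0.0499). Among the female-biased genes Cyp3a41a was called higher (3.55 log2, adjusted p = 0.0321). In the groups of 20, Slc4a1 had medians of 0.601 TPM in both groups beside a fitted difference of -1.93 log2. For Cyp3a41a the medians there were 0.820 and 0.547 TPM beside 3.22 log2. These fitted differences thus do not describe a shift of the median strain. The 13 neighbours of Hamp2 were all among the calls in both the 15 and the 20 strain comparison.

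Over all 55 strains the genes whose log2 CPM ran most like or unlike that of Hamp2 were the same as those above, which follows from the choice of strains. Gm1840 had a Pearson r of 0.924. Of named genes, Kl had -0.819, Fam187b -0.774, Cd22 -0.760, Lgi4 0.758, Fxyd1 -0.722, Hspb6 -0.715, Hamp -0.701 and Zfp420 -0.680. These values share the 55 libraries and the break in Hamp2 and carry no p.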

How the data were processed

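Liver RNA of 115 panel mice was sequenced from a stranded mRNA kit, per the labels' protocols. The authors deposited expected counts per gene and TPM per gene for the same mice, quantified with kallisto 0.46 on mm10, per the submitters' processing notes. That build derives from C57BL/6J. Identifiers were named from GENCODE M21 (35612 of 35711 matched). The design assumed whole counts, so the deposited expected counts were rounded before testing.

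BXD strains were ranked by Hamp2 TPM, without BXD65/RwwJ, and 20 were taken at each end. Counts were tested with edgeR 4.0.16 (quasi-likelihood, TMM, filterByExpr) in R 4.3.3, two-sided, over all genes, without covariates. Replicates are strains with 1 mouse each, so strain and mouse cannot be told apart. Alternatives used DESeq2 1.42.0, limma 3.58.1 on log2(TPM + 1) or log2(TPM + 0.1), RLE factors, other filters, the strain sets, and other numbers of strains. Log2 CPM used a prior count of 2. The permutation test planned for the relation of Hamp with Hamp2 within groups is not reported, because Hamp2 chose the groups. The fit was tested on simulated data.

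Named genes were Hamp, the iron genes, called genes within 1 Mb, and the largest called differences within 5 Mb, elsewhere on chromosome 7 and off it, with a mean of at least 1 CPM in a group, then the 8 genes most correlated with Hamp2. Predicted genes were counted and not named. Members, the 20 gene lists and tests were chosen with earlier results of these data known.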

Additional observations from a re-analysis of the deposited data

How the results depend on the processing

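The Hamp difference kept its sign under all 18 alternatives, from -0.42 to -0.52 log2 (adjusted p from 1.03e-08 to 0.704), and was lost among /TyJ and /Ty strains alone (-0.42). Of 342 values of the other 19 called genes, 269 stayed called, 73 did not and 0 changed sign; Fam187b, Gm1840, Hspb6, Kl and Lgi4 were called throughout. Counts are given as all genes called, then within 5 Mb, on chromosome 7 beyond and off it, where they moved by over 1.5 times from 20, 13, 0 and 7. No filter on low counts gave 52 in all, 1 beyond and 35 off. A mean of at least 10 counts gave 16 off. DESeq2 gave 56 in all, 5 beyond and 34 off. Limma on log2(TPM + 1) gave 11 in all, 8 within, 1 beyond and 2 off, and on log2(TPM + 0.1) 13 in all, 1 beyond and 3 off. The /TyJ and /Ty strains alone gave 5 in all, 3 within, 2 off and 0 iron genes, and /RwwJ strains alone 13 in all and 4 off. With 15 against 15 strains there were 787 in all, 26 within, 56 beyond, 705 off and 6 iron genes, and with 25 against 25, 2 off.

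Chosen after the data were seen: 18 against 18 gave 40 in all, 2 beyond and 25 off. In the 15 against 15 strains DESeq2 gave 1215 in all, 32 within, 87 beyond, 1096 off and 10 iron genes, and limma 475 in all, 29 beyond and 429 off. Without the libraries highest in neutrophil markers, 15 against 11 strains gave 27 in all, 1 beyond and 15 off. The 20 strain comparison without the 5 libraries highest in neutrophil or in erythroid markers gave 3 off. The cause of these differences was not tested. Genes near or under 1 TPM, such as Cd22, Lgi4 and Kl, rest on few counts per library. No paired analysis was possible because the groups share no strain, and the labels give no replicate numbers for the strains. The design therefore holds no pairs that such numbers could recover.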
